A study of Homo sapiens with 6 samples.

Results

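The interleukin 20 subfamily was followed here through 7 genes, the ligands IL24, IL20 and IL19 and the receptor chains IL20RA, IL20RB, IL22RA1 and IL10RB, out of 22411 named genes on the arrays. Each had 1 transcript cluster annotated to it alone, and no cluster shared by a member and another gene was found. The cells were U87, a widely used line from a human glioblastoma, and their RNA was read on 6 Affymetrix whole-transcript arrays. On 3 arrays was RNA of U87 cells incubated for 48 h with a carborane-bearing amino acid at 1 mM, the treated group. The other 3, the control group, carried RNA of U87 cells with no treatment, and no vehicle is named for them. Before this, cells had grown in EMEM medium for 48 h, supplemented with 10% serum and with pyruvate at 1 mM. A carborane is a cage of boron, carbon and hydrogen atoms, and the comparison asks how a compound carrying such a cage changed gene expression in these cells.

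The members are listed subfamily genes, selected on their log2 differences between treated and control arrays. Their values in that comparison are therefore given as a description, with no test. The lists of other genes below were also chosen with earlier results of these data known. Values are log2 signals as deposited, so a difference of 1 is a doubling on the deposited scale. Each array had 181 to 196 values over 16, more than the log2 of any 16-bit reading, so the scale may have been stretched and the size of a fold is uncertain. Nothing in the labels says that the triplicates were separate cultures, so errors and p-values measure the spread between these arrays, which may be technical, and the number of arrays limits the precision. In bulk RNA, a change in the share of cells that express a gene and a change in RNA per cell cannot be told apart.

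IL19, IL20 and IL24 are secreted cytokines of the wider interleukin 10 family. All of them bind a receptor made of IL20RA and IL20RB, and IL20 and IL24 also bind one made of IL22RA1 and IL20RB, so IL20RB is common to both receptors. The receptors act through JAK kinases, chiefly on the transcription factor STAT3. IL10RB is the partner chain with which IL22RA1 binds IL22, IL10RA binds IL10, IL20RA binds IL26 and IFNLR1 binds the lambda interferons. The subfamily is best known from skin, where these ligands act on keratinocytes, and IL24, also called MDA7, was isolated from differentiating melanoma cells and has been studied for its effect on the survival of tumour cells, glioma included.

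IL24 was by far the most different of the 7 genes, and the other members with higher signal in treated cells were the shared receptor chain IL20RB and the neighbouring ligand IL20. IL19, IL20RA and IL22RA1 lay at background in both groups. IL22RA1, within that background, and IL10RB, well above it, were slightly lower in treated cells. Treated and control values did not overlap for 5 members, 3 of them higher and 2 lower in treated cells. The same held for 53.5% of the 22411 genes, 27.7% with treated higher and 25.8% with treated lower, and limma called 45.6% of them at an adjusted p under 0.05. Since the members were listed from this comparison, nothing is read from their share.

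**Figure D1:**
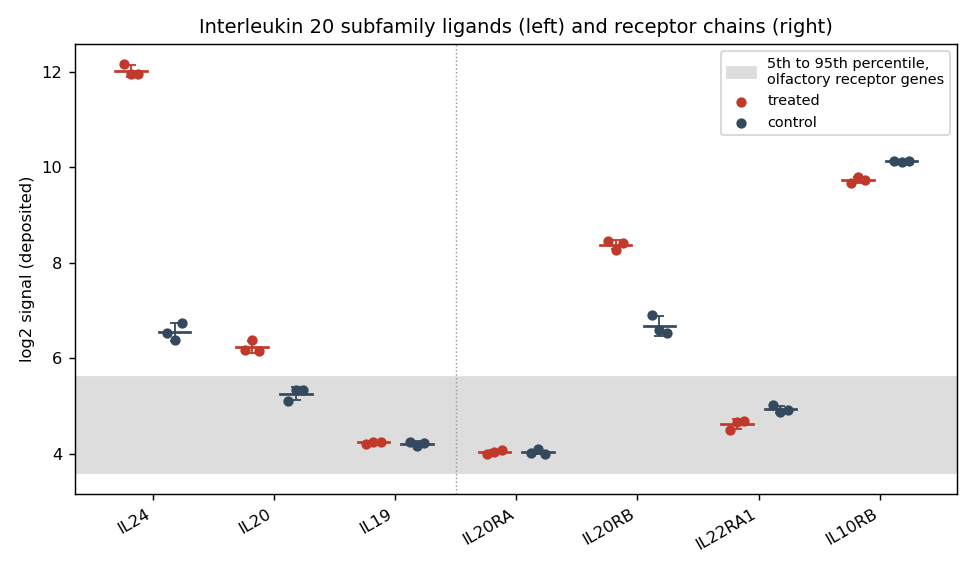
Log2 signal (vertical axis) of the 3 ligands and 4 receptor chains on the 3 treated and 3 control arrays; points are arrays, short lines are group means, bars are SD, and the grey band spans the 5th to 95th percentile of olfactory receptor genes. IL24 lies near 12.01 in treated and 6.56 in control cells, whereas IL19, IL20RA and IL22RA1 lie inside the band in both groups.

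The start regions of the 3 ligand genes and of IL20RB are shown because the ligands are adjacent genes that differed in size of change, and IL20RB is the receptor chain with higher signal. Sequences are RefSeq windows on GRCh38.p14, from 250 bases before to 50 after an annotated start, on the plus strand, at chr1:206897193-206897492 for IL24, chr1:206863315-206863614 and chr1:206865373-206865672 for the upstream and downstream starts of IL20, chr1:206770523-206770822 and chr1:206834099-206834398 for those of IL19, and chr3:136957733-136958032 for IL20RB. Capitals mark matches to a searched motif.
IL24: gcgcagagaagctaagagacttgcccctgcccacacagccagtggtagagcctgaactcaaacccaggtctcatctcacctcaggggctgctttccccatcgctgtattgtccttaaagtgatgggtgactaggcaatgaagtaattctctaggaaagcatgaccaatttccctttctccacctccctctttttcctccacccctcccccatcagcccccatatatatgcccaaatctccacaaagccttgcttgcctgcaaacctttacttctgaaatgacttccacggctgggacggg
IL20 upstream start: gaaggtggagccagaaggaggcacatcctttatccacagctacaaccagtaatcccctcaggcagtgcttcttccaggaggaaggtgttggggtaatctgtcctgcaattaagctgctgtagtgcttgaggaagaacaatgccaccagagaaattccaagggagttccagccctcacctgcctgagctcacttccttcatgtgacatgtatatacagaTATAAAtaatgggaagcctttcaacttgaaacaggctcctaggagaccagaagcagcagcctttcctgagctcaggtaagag
IL20 downstream start: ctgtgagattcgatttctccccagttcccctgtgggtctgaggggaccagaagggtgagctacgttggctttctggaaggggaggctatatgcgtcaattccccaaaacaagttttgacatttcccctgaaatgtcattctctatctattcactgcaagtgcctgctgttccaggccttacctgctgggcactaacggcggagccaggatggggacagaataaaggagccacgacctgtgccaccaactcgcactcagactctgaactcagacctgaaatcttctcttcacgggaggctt
IL19 upstream start: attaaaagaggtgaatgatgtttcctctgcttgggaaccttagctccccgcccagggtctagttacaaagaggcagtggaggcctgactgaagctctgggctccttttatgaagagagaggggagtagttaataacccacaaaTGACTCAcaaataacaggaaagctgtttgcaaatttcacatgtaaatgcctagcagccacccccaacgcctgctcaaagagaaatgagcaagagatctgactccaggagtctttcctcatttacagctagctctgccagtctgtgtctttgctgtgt
IL19 downstream start: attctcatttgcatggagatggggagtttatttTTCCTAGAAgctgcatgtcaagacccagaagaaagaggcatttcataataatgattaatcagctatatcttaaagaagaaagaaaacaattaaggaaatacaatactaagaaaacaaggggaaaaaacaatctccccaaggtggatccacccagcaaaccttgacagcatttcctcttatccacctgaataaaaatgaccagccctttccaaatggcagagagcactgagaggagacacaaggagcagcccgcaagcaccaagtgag
IL20RB: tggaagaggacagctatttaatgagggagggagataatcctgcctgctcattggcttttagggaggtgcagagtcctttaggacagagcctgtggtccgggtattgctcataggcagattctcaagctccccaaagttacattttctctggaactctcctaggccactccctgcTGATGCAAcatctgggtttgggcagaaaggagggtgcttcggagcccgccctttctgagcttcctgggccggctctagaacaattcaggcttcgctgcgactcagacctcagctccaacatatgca

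The search used both strands and covered AP-1 as TGANTCA, STAT as TTCNNNGAA, C/EBP as TTGCNNAA, the composite C/EBP-ATF element as TGATGNAA, the TATA box as TATAAA and the NF-kB consensus. The IL24 window held none of these letters. In IL20, the upstream start had TATAAA from position -32, and the downstream start had no match. The upstream start of IL19 had TGACTCA, an AP-1 match, from position -107 counted from the start, and its downstream start had TTCCTAGAA, a STAT match, from position -217. In IL20RB, TGATGCAA, a C/EBP-ATF match, began at position -76. Of 35116 RefSeq windows of this length, 7.71% held the AP-1 motif, 7.66% the STAT motif, 10.5% the C/EBP motif, 3.62% the C/EBP-ATF motif, 5.91% the NF-kB consensus and 11.5% the TATA box. The marked matches do not overlap one another. A match is a description of letters, not a site shown to be bound, and a missing match says only that these letters are not in the window.

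IL24 had log2 signals of 12.15, 11.94 and 11.95 on treated arrays 1 to 3, against 6.53, 6.39 and 6.75 on control arrays 1 to 3. Every treated array was far above every control array, with a gap of 5.19 between the closest arrays, whereas the arrays of a group spanned 0.21 in treated and 0.36 in control cells. The group means were 12.01 ± 0.12 in treated and 6.56 ± 0.18 in control cells (SD, n = 3 each), a difference of 5.46 (SE 0.13). On the deposited scale this is 43.9-fold, and with all values shrunk so that the highest is 16 it is 22.4-fold. IL24 had rank 10 among 22411 genes by size of rise. Its control signal was higher than that of 99.7% of 366 olfactory receptor genes, and it exceeded the control mean of 55.0% of all genes. The olfactory receptor genes served as a yardstick for background because neurons of the nose are their known site of expression. This yardstick was not wholly silent or flat, and its highest mean was 10.74 in treated and 10.41 in control cells. Of the 366 genes, limma called 36 higher and 6 lower, and their median log2 difference was 0.07. Most of their differences lay between -0.27 and 0.47, so differences within these limits near background are inside the spread of the yardstick.

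IL20, the ligand encoded next to IL24, had log2 signals of 6.18, 6.39 and 6.16 on the treated arrays, against 5.10, 5.35 and 5.33 on the control arrays. The groups did not overlap, and the means were 6.24 ± 0.13 in treated and 5.26 ± 0.14 in control cells, a difference of 0.98 (SE 0.11), or 1.98-fold. The control mean lay within the olfactory receptor range, whose 95th percentile was 5.62 in treated and 5.52 in control cells, and the treated mean lay above it. The size of this difference is therefore uncertain. IL19, the remaining ligand of the cluster, had 4.21, 4.26 and 4.26 in treated and 4.26, 4.16 and 4.24 in control cells. Its groups overlapped, the difference was 0.02 (SE 0.03), and both means lay near the median of the olfactory receptor genes, 4.30 in treated and 4.24 in control cells. No IL19 signal above background was detectable on these arrays.

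Among the receptor chains, IL20RB had 8.45, 8.27 and 8.42 on the treated arrays, against 6.91, 6.59 and 6.53 on the control arrays. Treated arrays were again all higher, with means of 8.38 ± 0.10 in treated and 6.68 ± 0.20 in control cells and a difference of 1.70 (SE 0.13), or 3.26-fold. IL20RB-AS1, an antisense RNA gene that overlaps IL20RB, had a log2 difference of 0.09 (adjusted p = 0.482, limma). IL20RA, the chain that completes the receptor for all 3 ligands, had 4.00, 4.05 and 4.08 in treated and 4.03, 4.10 and 4.01 in control cells. These values overlapped, were within 0.01 of each other as means (4.04 in treated and 4.05 in control cells), and sat below the olfactory receptor median. IL22RA1, which completes the other receptor, had 4.50, 4.68 and 4.70 in treated against 5.02, 4.87 and 4.92 in control cells. Its groups did not overlap, with a difference of -0.31 (SE 0.08), but both means were inside the olfactory receptor range, so neither alpha chain had signal above that yardstick in either group. A low array signal does not show that a chain is absent, since the table used here has no detection calls.

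IL10RB was the member with the highest control signal. It had 9.67, 9.80 and 9.74 on the treated arrays, against 10.13, 10.11 and 10.13 on the control arrays. Treated values were all lower, with means of 9.74 ± 0.07 in treated and 10.12 ± 0.01 in control cells and a difference of -0.39 (SE 0.04). The control arrays spanned 0.02 and the treated arrays 0.13.

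Leukocytes and keratinocytes are known sources or targets of these cytokines, so their markers were read in the same arrays. Of 7 measured leukocyte markers, only CD68, a lysosomal protein found in many cells, exceeded the 95th percentile of the olfactory receptor genes, in both groups, and 0 were called higher or lower (limma; 0 at an unadjusted p under 0.05). PTPRC, the pan-leukocyte marker, was at 4.56 in treated and 4.52 in control cells. Of 6 keratinocyte and epithelial markers, KRT10 alone passed that level, and of 4 endothelial markers none did. EPCAM, an epithelial adhesion protein, fell by 0.20 (adjusted p = 0.00934, limma) and TEK, an endothelial receptor, fell by 0.56 (adjusted p = 5.89e-05, limma), each with both means below that level. The summed log2 signal of the leukocyte markers was 44.47 to 44.59 in treated and 44.39 to 44.66 in control arrays, that of the keratinocyte markers 30.25 to 30.39 and 30.38 to 30.64, and that of the endothelial markers 18.18 to 18.45 and 18.91 to 19.05. The glioblastoma and astrocyte markers moved most, with a summed signal of 86.25 to 86.41 in treated and 89.31 to 89.74 in control arrays. Of these 10 markers, 3 were called higher and 3 lower, against 24.0% and 21.6% of all genes. NES, the filament protein nestin, fell by 1.89, SOX9, a glial transcription factor, fell by 1.86 and VIM, the filament protein vimentin, fell by 0.70, while TNC, CD44 and OLIG2 rose by 0.83, 0.44 and 0.37. VIM, CD44, TNC, SOX9 and NES exceeded the 95th percentile of the olfactory receptor genes in both groups. OLIG2, at 5.62 in treated and 5.25 in control cells, just exceeded it in treated cells, and the astrocyte marker GFAP, at 5.43 in treated and 5.54 in control cells, just exceeded it in control cells. The part of these shifts in the members' values was not tested. Arrays of the same group correlated at 0.998 and arrays of different groups at 0.959 to 0.963 over genes.

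Set among interleukin and related ligand genes, IL24 was 1 of few with a large difference. The list had 45 measured genes, and by log2 difference IL24 took rank 4, after IL1A, IL6 and CXCL8, with IL20 at rank 8. Among the 42 that are not members there were 9 rises, 4 falls and 29 genes without a call (limma, Benjamini-Hochberg adjusted p under 0.05 over all genes), against 24.0% of all genes called higher and 21.6% called lower. Their median log2 difference was 0.06, against 0.01 for all genes. IL1A, an alarm cytokine released by damaged cells, was at 14.15 ± 0.14 in treated and 7.68 ± 0.18 in control cells, a rise of 6.47. IL6, the main activator of STAT3 in inflammation, rose by 6.35, the neutrophil attractant CXCL8 by 5.69, IL1B by 3.01 and LIF, an IL6 relative, by 2.28. Smaller rises were seen in IL23A at 1.03 and TSLP at 0.95, both with control signals inside the olfactory receptor range, as IL20 had. IL33, a nuclear alarm cytokine, had 4.90 ± 0.08 in treated and 6.67 ± 0.04 in control cells and fell by 1.77 (adjusted p = 3.61e-07, limma).

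**Figure D2:**
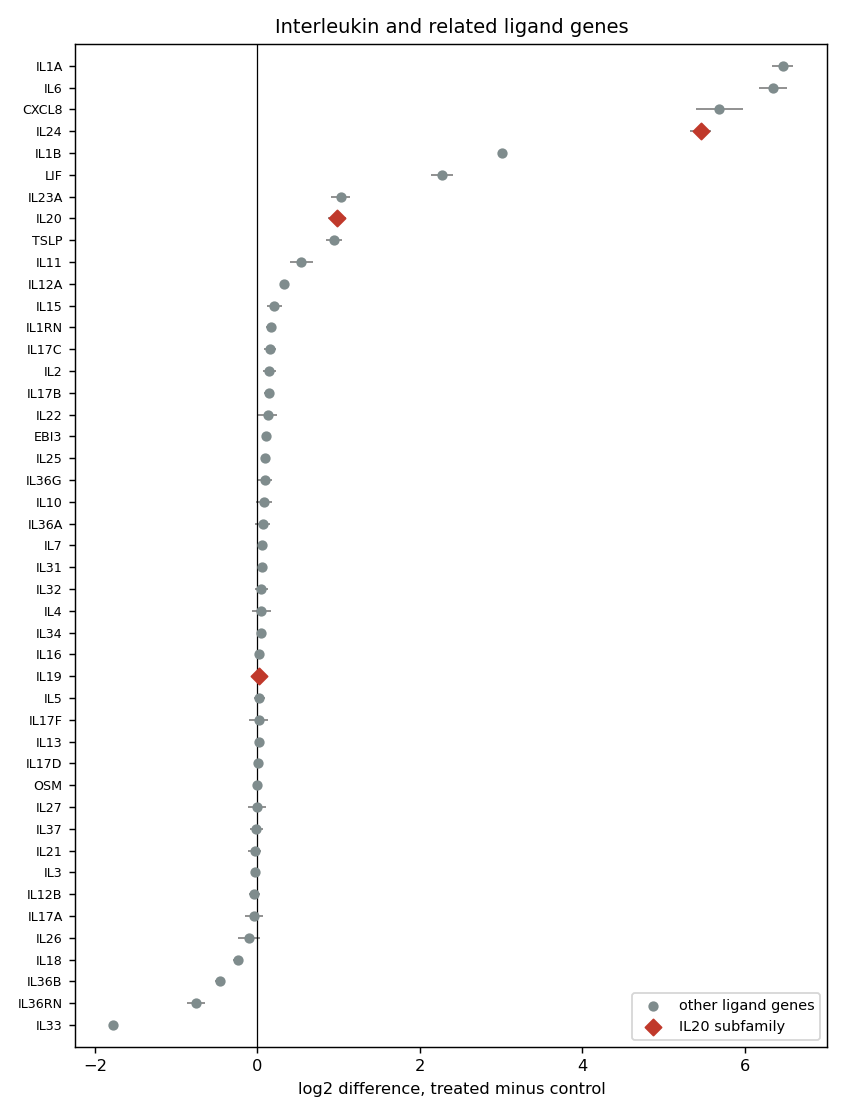
Log2 difference between treated and control means (horizontal axis) for 45 interleukin and related ligand genes, sorted by size; bars are the SE from the group SDs, n = 3 each, and diamonds mark the 3 ligands of the subfamily. IL24 lies at 5.46 beside IL1A, IL6 and CXCL8, IL20 at 0.98 and IL19 at 0.02.

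The closest relatives outside the subfamily were near background. Of 10 other ligand genes of the interleukin 10 and interferon families, 1 was called higher, 0 lower and 9 had no call, around a median log2 difference of 0.04 (limma; 1 higher and 0 lower at an unadjusted p under 0.05). These calls stand beside 24.0% of all genes called higher and 21.6% lower. The called gene was IFNB1, encoding interferon beta, at 3.83 ± 0.10 in treated and 3.62 ± 0.06 in control cells, a log2 difference of 0.21 (adjusted p = 0.0344, limma). Both its means are inside the olfactory receptor range, and its difference is inside the spread of differences of those genes. Without treated replicate 2, control replicate 1 or control replicate 2 the list had 0 higher calls. IL10, the anti-inflammatory founder of the family, differed by 0.08, IL22, a ligand of IL22RA1, by 0.13, and IL26, a ligand of IL20RA, by -0.11, all 3 at background and not called.

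Other genes of the class II cytokine receptor family, to which the 4 receptor chains belong, rose in 4 of 7 measured cases and fell in 1, and 2 had no call. Their median log2 difference was 0.34, and the shares over all genes were 24.0% called higher and 21.6% lower. IFNGR1, the ligand-binding chain of the interferon gamma receptor, had 9.57, 9.71 and 9.63 in treated and 8.47, 8.46 and 8.50 in control cells, a rise of 1.16 (SE 0.05, adjusted p = 1.69e-06, limma). The other interferon receptor chains rose less, IFNGR2 by 0.66, IFNAR1 by 0.53 and IFNAR2 by 0.34. F3, the coagulation receptor tissue factor, fell by 0.77. IL10RA and IL22RA2, a secreted decoy that binds IL22, were at background with differences of -0.03 and -0.0033 and were not called. IFNLR1 shares its transcript cluster with another gene and was not analysed here. IL10RB lies beside IFNAR2, IFNAR1 and IFNGR2 on chromosome 21, and these 3 neighbours rose while IL10RB had the lower treated values given above.

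**Figure D3:**
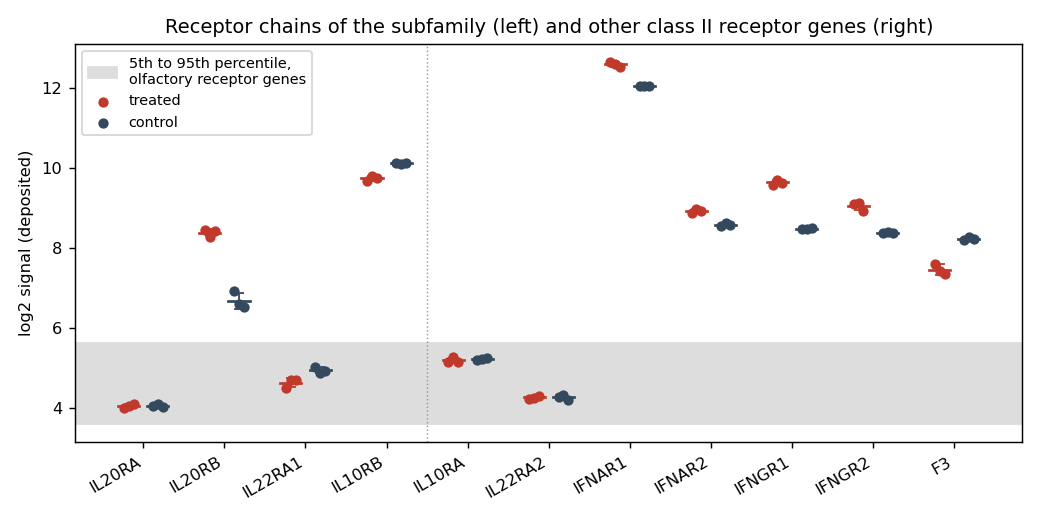
Log2 signal (vertical axis) of the 4 receptor chains of the subfamily and 7 other class II cytokine receptor genes on the treated and control arrays; points are arrays, lines means, bars SD (n = 3 each), and the grey band spans the 5th to 95th percentile of olfactory receptor genes. IL20RB and IFNGR1 are clearly higher in treated cells, and IL10RB and F3 are lower.

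The kinase and transcription factor genes of the pathway differed by under 1 on the log2 scale. Calls over all genes were 24.0% higher and 21.6% lower. Of 9 measured JAK and STAT genes, 3 rose and 0 fell, and the median log2 difference was 0.01 (limma; 3 higher and 1 lower at an unadjusted p under 0.05). JAK1, the kinase bound to the alpha chains, rose by 0.47, JAK2 by 0.74 and STAT3, the main target of these receptors, by 0.55, with 12.80 ± 0.04 in treated and 12.25 ± 0.02 in control cells (adjusted p = 2.9e-05, limma). TYK2, the kinase that binds IL10RB, differed by -0.10 (adjusted p = 0.119, limma). With arrays centred on their medians 1 gene of the list was called lower, and with repeated quantile normalization 2 were, TYK2 among them.

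Of 16 feedback genes of the pathway, 7 rose, 6 fell and 3 had no call, around a median log2 difference of 0.03. Among the rises, SOCS1 and SOCS2 had both means below the 95th percentile of the olfactory receptor genes. With any 1 array left out, 5 to 7 of the list were called higher and 5 lower. The all-gene shares, for these and for the STAT3 targets below, were 24.0% called higher and 21.6% lower. SOCS3, the STAT3-induced inhibitor of JAK signalling, had 9.64, 9.22 and 9.64 in treated and 8.02, 8.21 and 8.16 in control cells, a rise of 1.37 (SE 0.12). SOCS7, of the same family, rose too, at 8.63 ± 0.11 in treated and 7.27 ± 0.18 in control cells. Genes for the STAT inhibitors PIAS1 and PIAS2 fell by 0.61 and 0.59, and PTPN11, which encodes the phosphatase SHP2, fell by 0.82. Known STAT3 targets numbered 18, of which 10 rose and 4 fell, and their median was 0.24. JUNB, an AP-1 subunit, was at 9.35 ± 0.10 in treated and 7.75 ± 0.10 in control cells and rose. IL6ST, the signalling chain of IL6 receptors, fell by 1.20 and HIF1A, the hypoxia factor, fell by 0.94. BIRC5, the mitotic protein survivin, fell by 2.41. IL6 and LIF, which also act through STAT3, rose in the same arrays, and the part of any ligand in these values was not tested.

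Genes that earlier work has linked to IL24 action in tumour cells rose in 14 of 19 measured cases, with 0 lower and 5 not called and a median log2 difference of 0.42 (limma; 14 higher and 2 lower at an unadjusted p under 0.05). Of all genes, 24.0% were called higher and 21.6% lower, and this list was chosen with earlier results of these data known. DDIT3, the stress factor CHOP, had 11.83, 11.91 and 11.94 in treated and 8.77, 8.43 and 8.27 in control cells. Its rise was 3.40 (SE 0.12). PPP1R15A, known as GADD34, which restores translation under stress, rose by 3.04, the death receptor gene TNFRSF10B by 2.29 and EIF2AK3, the stress kinase PERK, by 1.81. HSPA5, the chaperone BiP that IL24 has been reported to bind, rose by 1.13. BCL2, which blocks apoptosis and which IL24 has been reported to lower, rose by 0.57. Some of the genes named here are also known to answer to amino acid or endoplasmic reticulum stress or to p53. The part of IL24 or of any other input in their values was not tested. The count of lower calls was 1 to 3 with arrays centred, repeated quantile normalization, array weights, trend and robust estimation or dim genes left out, and also 1 without treated replicate 1.

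A list of transcription and mRNA stability factors linked to IL24 had 20 measured genes. Of these, 12 rose, 7 fell and 1 had no call, with a median of 0.33, against 24.0% of all genes called higher and 21.6% lower. ATF3, a stress-induced factor of the ATF and AP-1 group, rose by 3.22 and the AP-1 subunit JUND by 2.65, and CEBPB, reported with AP-1 at the IL24 promoter, rose by 0.31. ZFP36L1, an RNA-binding protein that shortens the life of AU-rich mRNAs, fell by 1.96, NONO, an RNA-binding protein, by 1.00 and HNRNPD, known as AUF1, by 0.95. ZFP36, which like ZFP36L1 binds AU-rich mRNAs and promotes their decay, rose by 0.99, and the related ZFP36L2 rose by 0.47. MAPKAPK2, the kinase that inactivates the ZFP36 protein and a chromosomal neighbour of the cluster, rose by 0.35.

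Epidermal genes that IL20 subfamily ligands are known to induce in keratinocytes gave 4 rises, 1 fall and 7 genes with no call of 12. Their median was 0.005, near that of all genes, of which 24.0% were called higher and 21.6% lower. The largest rises were in CXCL8, in the chemokine gene CCL20 and in MMP3, a matrix protease, by 2.47. CCL20 was at 10.92 ± 0.22 in treated and 6.72 ± 0.15 in control cells. S100A7, the remaining rise, had both means below the 95th percentile of the olfactory receptor genes. So did S100A8, S100A12, LCN2, KRT16 and CAMP, which were not called. PI3 and MMP1 lay above that level and were not called either. DEFB4A, KRT6A and KRT6B had no transcript cluster annotated to them alone and were not analysed. The part of any ligand in these values was not tested. S100A9, an antimicrobial calcium-binding protein, fell by 0.28 (adjusted p = 0.0199, limma), a call that was lost without treated replicate 1, control replicate 2 or control replicate 3. Without control replicate 2 or 3 the list had 0 lower calls, and without treated replicate 3 it had 2.

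IL19, IL20 and IL24 are consecutive genes on chromosome 1, followed by FCMR and preceded by IL10 and MAPKAPK2. Within 500 kb of IL24, 16 other genes were tested, and 9 rose, 1 fell and 6 had no call. The median log2 difference was 0.26, and of all genes 24.0% were called higher and 21.6% lower. The largest rises were in CD55, a membrane inhibitor of complement, at 1.79, the kinase gene DYRK3 at 1.58, the translation factor gene EIF2D at 1.07 and RASSF5, which encodes a Ras effector, at 1.01. FCMR, an immunoglobulin M receptor gene that overlaps IL24 in the annotation, was at 6.25 ± 0.11 in treated and 5.59 ± 0.05 in control cells and rose by 0.65 (adjusted p = 0.000109, limma). Whether the clusters share signal was not tested. IKBKE, an inflammatory kinase gene at the edge of the window, fell by 0.47, and PIGR, FCAMR and IL10 were not called. The annotation holds 36 other genes in this window, and only the 16 tested have values. None of the 16 had a difference above 1.79, against 5.46 for IL24, a member selected on its difference.

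**Figure D4:**
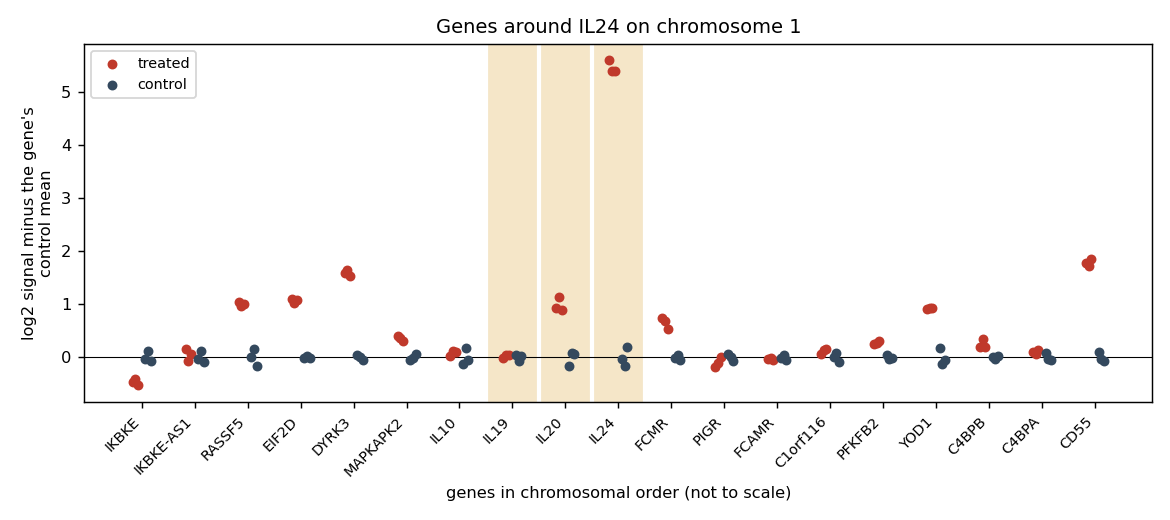
Log2 signal minus the gene's own control mean (vertical axis) for the 19 measured genes within 500 kb of IL24, in chromosomal order and not to scale; points are the 3 treated and 3 control arrays, and shading marks IL19, IL20 and IL24. IL24 stands at 5.46, while CD55, the next highest, is at 1.79 and IL19 at 0.02.

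The genes around the other members were counted in the same way. Around IL22RA1, 9 of 18 tested genes fell, 0 rose and 9 were not called (limma; 0 higher and 10 lower at an unadjusted p under 0.05). Around IL20RB, 1 of 5 fell, the cohesin gene STAG1 at -0.68, and 0 rose (limma; 1 higher and 1 lower at an unadjusted p under 0.05), although IL20RB itself was higher in treated cells. Around IL20RA, 5 of 9 rose and 0 fell (limma; 6 higher and 0 lower at an unadjusted p under 0.05), IFNGR1 and the stress kinase gene MAP3K5, at 1.24, among them. Around IL10RB, 6 rose, 3 fell and 7 were not called of 16. Together 64 of 137 different annotated neighbours were tested, with 20 higher, 14 lower and 30 not called. Over all genes 24.0% were called higher and 21.6% lower. The counts around single members are small, and whether they differ from these shares was not tested.

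The genes whose 6 values were most like those of IL24, once each gene's control mean was subtracted, were ATP6V0D2, NFKBIZ, MSC, CXCL8, ERN1, IL6, ADAMTS5 and UNC5B, in that order. Likeness was the root mean square difference over the 6 arrays among protein-coding genes, and it was 0.15 for ATP6V0D2, a proton pump subunit, 0.28 for NFKBIZ, a nuclear regulator of NF-kB, and 0.73 for UNC5B, a netrin receptor. ATP6V0D2 was at 13.59 ± 0.08 in treated and 8.15 ± 0.11 in control cells. Control replicate 3 had the highest IL24 value of the controls, 6.75, and the highest for ATP6V0D2, at 8.23 against 8.03 and 8.19. It had the lowest for the other 7 genes, among them NFKBIZ, at 9.01 against 9.53 and 9.52, CXCL8, at 10.66 against 11.35 and 11.65, and IL6, at 7.26 against 7.71 and 7.81. Without control replicate 3 the IL24 difference was 5.55. The 6 arrays fall into 2 groups, so likeness mainly reflects the size of the difference.

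**Figure D5:**
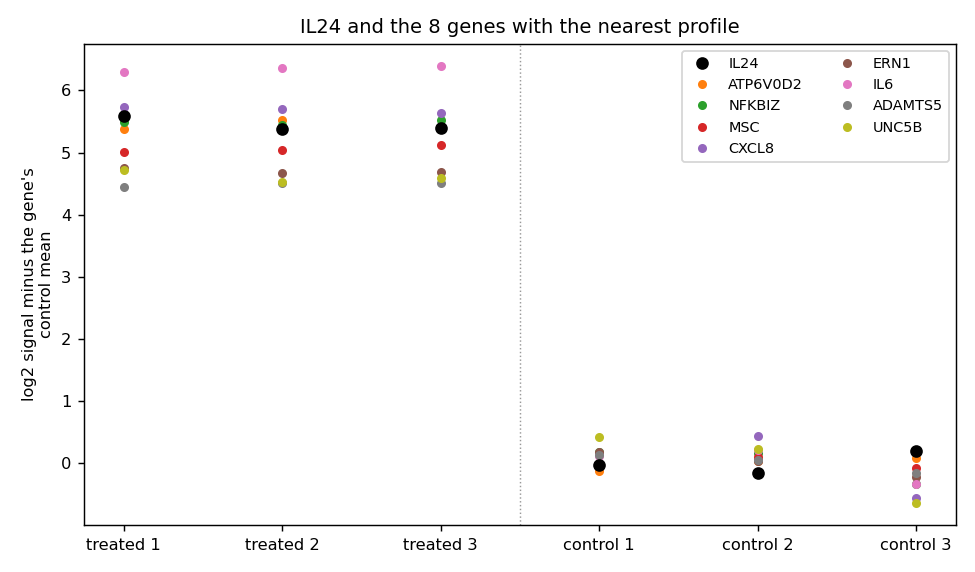
Log2 signal minus the gene's own control mean (vertical axis) on each of the 6 arrays for IL24 (large black points) and the 8 genes with the nearest profile. In control replicate 3 IL24 and ATP6V0D2 lie above their control means while the other 7 genes lie below theirs.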

How the data were processed

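Log2 signals of transcript clusters were deposited. RMA and Transcriptome Analysis Console 4.0.1.36 are named for them in the submitters' processing notes. Per the labels' protocols, arrays received 100 ng of RNA (integrity number over 8). The table had 67528 rows and no missing value, and 0 columns lacked a sample. No genome build is named.

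The platform annotation named the rows, and symbols were updated through RefSeq (GRCh38.p14). In total, 23781 rows had 1 symbol, 1543 had several and 42204 had none. The row with the highest mean was kept per gene, for 22411 genes.

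The fit used limma 3.58.1 (lmFit and eBayes under R 4.3.3, 4 residual degrees of freedom, no filter on level), with Benjamini-Hochberg adjustment over all genes and calls under 0.05. The fit was tested on simulated data for the same 22411 genes, with 50 genes changed at each size. It recovered 96% of genes changed by 1 and 22% of those changed by 0.25 on the log2 scale. In the real data 45.6% of genes were called, and the adjustment is stricter where few genes change. These percentages therefore do not give the sensitivity of the real fit. Members and lists were chosen with earlier results of these data known.

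Named genes were all members, up to 4 called genes with the smallest adjusted p per list, the neighbours included, a fixed set of receptors, ligands, kinases and MAPKAPK2, the 8 nearest profiles to IL24 and ligands differing by at least 2. Others, such as IL23A, TSLP, HSPA5, BCL2, JUND, CEBPB, HNRNPD, FCMR, RASSF5, IKBKE, STAG1, ZFP36, IL20RB-AS1 and single markers, were chosen after their values were seen. Markers were read for glioblastoma, leukocyte, keratinocyte and endothelial cells. Same-numbered treated and control replicates did not deviate together (correlations of -0.077, 0.040 and -0.047), so no block was used. Alternatives covered rows, centring, normalization, scale, moderation, weights, dim genes, a minimum difference and leaving out each array. Figures were drawn with matplotlib 3.10.9.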

Additional observations from a re-analysis of the deposited data

How the results depend on the processing

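Leaving out each array in turn left the IL24 difference at 5.37 to 5.55, IL20RB at 1.63 to 1.82, IL20 at 0.90 to 1.03, IL22RA1 at -0.35 to -0.25 and IL10RB at -0.42 to -0.35, while IL19 ran from -0.01 to 0.04 and IL20RA from -0.02 to 0.02. With the scale shrunk to a highest value of 16, the differences were 4.49 for IL24, 1.40 for IL20RB, 0.81 for IL20 and -0.32 for IL10RB. With repeated quantile normalization IL10RB was at -0.45. Each member has 1 row, so the choice of row changed none of the 7.

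A minimum log2 difference of 1 left 1116 of all genes higher and 1108 lower, and by construction it lowered the list counts: higher and lower calls were 1 and 0 for class II receptors, 2 and 0 for feedback genes, 4 and 2 for STAT3 targets, 5 and 2 for factors linked to IL24, 6 and 2 for neighbours, and higher calls were 0 for the other family ligands, 0 for JAK and STAT genes and 7 for genes linked to IL24 action. Lower calls were then 0 for epidermal genes and 1 for interleukin ligands.

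For the other family ligands, higher calls were 0 with trend and robust estimation, with dim genes left out and with centred arrays, and both directions ran from 0 to 1 when an array was left out. Lower JAK and STAT calls were 1 with centred arrays, 2 with repeated quantile normalization and 0 to 1 when an array was left out. Lower calls among genes linked to IL24 action were 2 with trend and robust estimation, 2 with array weights, 2 with dim genes left out, 1 with centred arrays, 3 with repeated quantile normalization and 0 to 1 when an array was left out. Lower epidermal calls were 2 with dim genes left out and 0 to 2 when an array was left out, and lower interleukin ligand calls were 2 with dim genes left out. Apart from dim genes left out, where fewer genes are tested, the cause was not tested.

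With the replicate number as a block, all genes gave 5086 higher and 4491 lower calls, the other family ligands 0 higher and the epidermal genes 2 lower. The labels do not say whether same-numbered arrays share more than a number, and not every array correlated best with its own. Weak correlations over so few arrays cannot show that shared handling was absent. Over the 77 other genes given values, 973 of 983 values under these settings kept their side of the threshold, 9 lost the call, all in IFNB1 and S100A9, and 1 gained it, TYK2. Of the called values, 0 changed sign. Signals near background limit what can be said of IL19, IL20RA, IL22RA1 and the control level of IL20.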
